A study of Mus musculus with 2 samples.

Results

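The 42 genes described here are the FGF genes of the mouse table: 22 *Fgf* ligand family genes, *Fgfr1* to *Fgfr4* and *Fgfrl1*, the adaptors *Frs2* and *Frs3*, *Flrt1* to *Flrt3*, the feedback genes *Spry1* to *Spry4* and *Spred1* to *Spred3*, and the transcription factor genes *Etv1*, *Etv4* and *Etv5*. They were chosen by name from 21628 entries, and all 42 have a value in both libraries. RNAseq was performed on 1 GFP-high and 1 GFP-low library, each made from about 100000 cells sorted by GFP brightness from lingual epithelium of Sox2GFP mice at P0 that had been peeled and dissociated with enzymes. Both populations carry the reporter, in which GFP marks cells that express *Sox2*, and were sorted from the pooled cells of pups of several litters. The study notes that the GFP-low population held mesenchyme as well as epithelium, and GFP-negative cells were not analysed here. With no replicate, no p-value or error can be given for any difference below.

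FGFs are secreted proteins that bind receptor tyrosine kinases together with heparan sulfate. Activated receptors phosphorylate FRS adaptors and switch on RAS and ERK, which raise transcription of *Etv4*, *Etv5* and of Sprouty and dual-specificity phosphatase genes that in turn limit the signal. In many developing epithelia, ligands from mesenchyme act on the epithelial splice form of FGFR2, and exchange between epithelium and mesenchyme shapes papillae, teeth, hair and glands. *Sox2*, the gene that carries the reporter, had 112.3 FPKM in GFP-high against 59.0 in GFP-low cells. FPKM, the number of fragments relative to transcript length and to all mapped fragments, allows levels to be compared between genes of different length. A gene was called enriched in a library at 5 FPKM or more there and at least 1.5-fold over the other library. The results of the study describe a threshold of this kind, and its methods ask for 5 FPKM in each sample. With 5 FPKM required in both libraries the same 7 members were called, and over all genes 777 in GFP-high and 633 in GFP-low in place of 1020 and 958.

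Receptor mRNA was abundant in both populations, while ligand mRNA was scarce. The genes of the receptors, adaptors, FLRT proteins, feedback inhibitors and ETV factors held 1415 FPKM in GFP-high against 1516 in GFP-low cells, whereas all 22 *Fgf* genes together held 22.9 and 18.8 FPKM. Where paired values stand without a label, the GFP-high value comes first, and gene positions are on mm10. Of the 42 genes, 2 were called in GFP-high cells, *Spry1* and *Fgfrl1*, which is 4.76% beside 4.72% of all 21590 genes compared, a share at the background. In GFP-low cells 5 were called, *Etv4*, *Spred1*, *Fgfr1*, *Flrt2* and *Etv5*, which is 11.9% beside 4.44% of all genes. Only genes at 5 FPKM or more in a library can be called. Among the members 15 of 42 reached it in either library, beside 10760 of all 21590 genes, so both shares depend on level as well as ratio. The median difference in log2(FPKM + 1), GFP-high minus GFP-low, was −0.08 over the 41 members detected in at least 1 library and −0.02 over the 17283 such genes of the table. None of the 7 called genes lost its call when each library was divided by its FPKM sum (TPM), when GFP-low was rescaled so that the median ratio was 1, or when 0.1 or 1 was added to each FPKM. Of all calls in the table, 51.6% were in GFP-high cells, and on the TPM scale 39.8%.

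In bulk RNA, more cells of a type cannot be told apart from more RNA per cell, and markers of several cell types differed between the libraries. Epithelial markers were high in both, with *Krt5* at 9667 FPKM in GFP-high against 10422 in GFP-low cells and *Epcam* at 165.7 and 86.8. Fibroblast markers were higher in GFP-low cells for 9 of 11 genes, with summed FPKM of 434.1 in GFP-high against 1840 in GFP-low cells. Schwann lineage markers were higher in GFP-low cells for 8 of 8 genes, with sums of 89.8 and 318.4. Most of the GFP-high sum came from *Erbb3* (60.25 and 66.89 FPKM) and *Mbp* (22.36 and 55.28). The median difference in log2(FPKM + 1) over the Schwann list was −3.01. These lists, and the basal keratinocyte markers given below, moved with *Fgfr1*, *Flrt2*, *Spred1*, *Etv4* and *Etv5*. *Sox10* was at 0.51 and 42.7 FPKM. No gene of the fibroblast or Schwann list was at 0 in either library.

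With *Spry1*, *Fgfrl1*, *Fgf18* and *Sdc1*, the suprabasal keratinocyte markers (6 of 8 higher in GFP-high cells, sums of 47726 and 13823 FPKM) and the taste cell markers (7 of 8, sums of 85.7 and 19.5) moved toward GFP-high cells, while basal keratinocyte markers were higher in GFP-low cells for 7 of 7 genes. Endothelial markers were higher in GFP-high cells for 8 of 9 genes, with sums of 39.1 and 27.2 FPKM. The summed FPKM of melanocyte markers was 18.5 and 3.91, of which *Mitf* had 17.2 and 1.24, so the sum followed *Mitf*. By gene, 2 melanocyte markers moved toward GFP-high, against 3 toward GFP-low. The latter were *Dct* (0.23 and 0.91 FPKM), *Tyrp1* (0.04 and 0.88) and *Mlana* (0 and 0.15), all at low levels. *Tyr* was at 0 in both libraries. Skeletal muscle markers summed to 12.4 and 14.3 FPKM, and the 5 leukocyte markers in the table to 16.1 and 17.5. The part of these cell types in the differences among FGF genes was not tested.

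**Figure D1:**
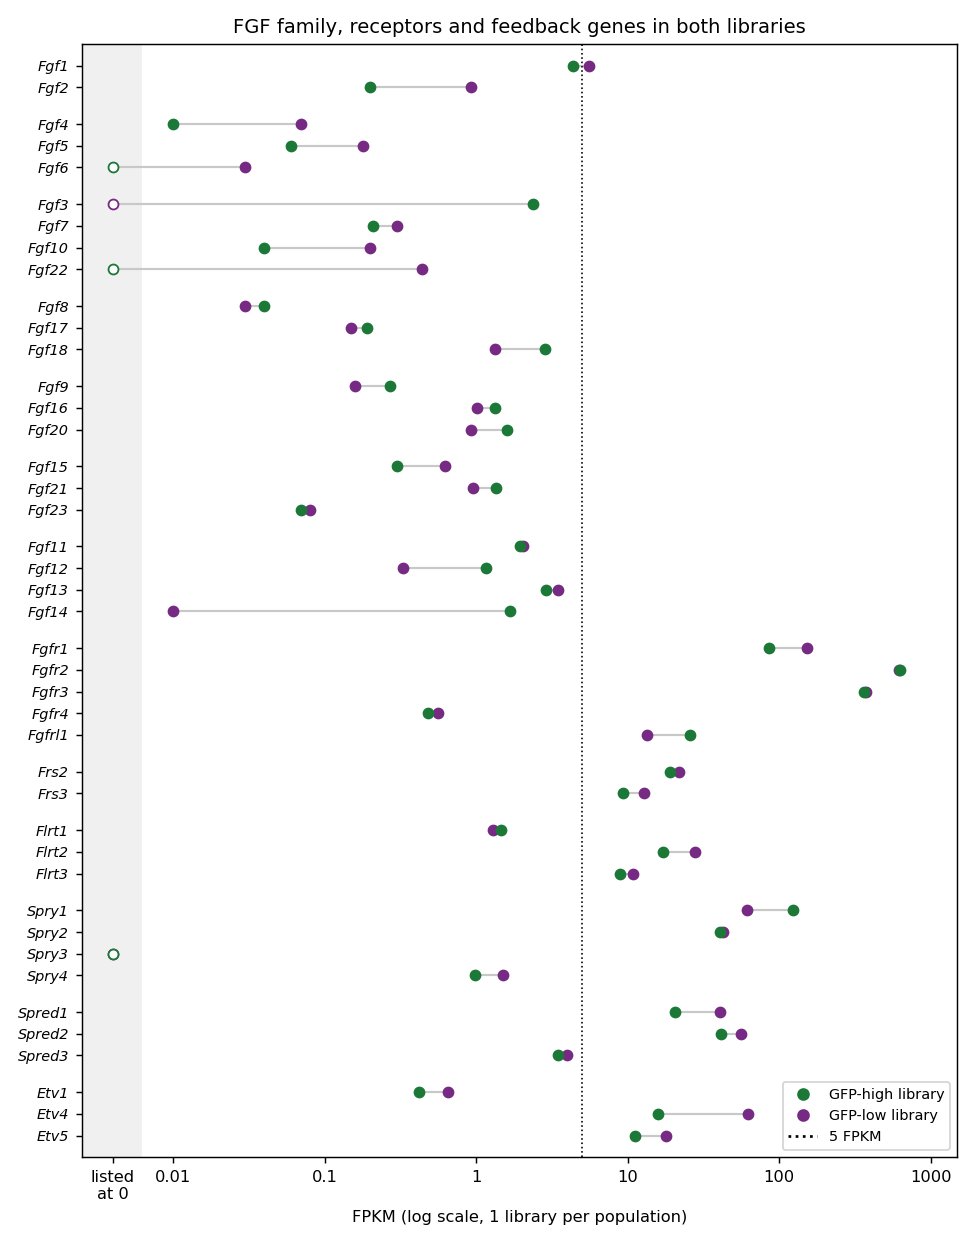
FPKM of each of the 42 genes in the GFP-high (green) and GFP-low (purple) library on a log axis, grouped by role, with open circles for values listed at 0 and a dotted line at 5 FPKM. *Fgfr2* and *Fgfr3* lie far to the right with overlapping points (629.6 and 616.6 FPKM for *Fgfr2*), and among the *Fgf* genes the only point past the line is that of *Fgf1* in GFP-low cells, at 5.55 FPKM.

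Promoter sequences are shown for 4 of the called genes, a feedback inhibitor and a membrane protein from each direction: *Spry1* and *Fgfrl1*, higher in GFP-high cells, and *Spred1* and *Flrt2*, higher in GFP-low cells. The windows run from 250 bases before to 50 bases after the RefSeq transcription start on GRCm38.p6, 5′ to 3′ on the strand of the gene. Capitals mark CCGGAA (the core bound by ETS factors such as ETV4 and ETV5), ACAAAG (bound by SOX factors) and TGTTTAC (bound by FOX factors), each on either strand. None of these motifs overlapped another in the windows printed.
Spry1 (chr3:37639697-37639996, plus strand): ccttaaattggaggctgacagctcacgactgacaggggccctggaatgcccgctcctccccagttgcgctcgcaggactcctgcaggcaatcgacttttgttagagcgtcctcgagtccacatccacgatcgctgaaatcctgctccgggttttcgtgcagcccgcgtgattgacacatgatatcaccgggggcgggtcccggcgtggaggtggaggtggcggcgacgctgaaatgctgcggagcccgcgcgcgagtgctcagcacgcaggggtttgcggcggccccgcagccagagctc
Fgfrl1 (chr5:108693979-108694278, plus strand): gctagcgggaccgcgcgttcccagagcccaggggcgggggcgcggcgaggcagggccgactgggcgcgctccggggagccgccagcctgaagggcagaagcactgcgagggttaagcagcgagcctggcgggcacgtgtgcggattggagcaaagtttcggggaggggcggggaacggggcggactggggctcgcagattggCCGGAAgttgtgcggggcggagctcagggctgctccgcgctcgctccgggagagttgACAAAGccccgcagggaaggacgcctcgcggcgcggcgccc
Spred1 (chr2:117120821-117121120, plus strand): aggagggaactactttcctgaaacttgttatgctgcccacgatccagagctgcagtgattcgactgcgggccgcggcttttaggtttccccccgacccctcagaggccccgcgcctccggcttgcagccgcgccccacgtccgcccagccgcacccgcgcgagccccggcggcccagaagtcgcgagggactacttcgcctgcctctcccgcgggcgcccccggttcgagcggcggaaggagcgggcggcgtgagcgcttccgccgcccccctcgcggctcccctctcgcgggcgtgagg
Flrt2 (chr12:95691976-95692275, plus strand): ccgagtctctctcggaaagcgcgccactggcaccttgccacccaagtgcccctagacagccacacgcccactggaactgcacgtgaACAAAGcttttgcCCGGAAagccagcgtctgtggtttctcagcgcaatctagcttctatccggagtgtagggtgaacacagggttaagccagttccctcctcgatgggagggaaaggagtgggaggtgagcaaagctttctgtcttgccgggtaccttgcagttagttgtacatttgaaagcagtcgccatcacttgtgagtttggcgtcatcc

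The window of *Fgfrl1* holds CCGGAA 48 bases before the start and ACAAAG 9 bases after it, and that of *Flrt2* holds CCGGAA 151 bases and ACAAAG 164 bases before the start. No match was found in the windows of *Spry1* and *Spred1*. *Etv5* has 2 such windows, one with TGTTTAC 183 bases and one with ACAAAG 3 bases before its start. Windows were available for 31 of the 42 genes, 40 in all. Of these 40, 7 held CCGGAA (17.5%), 8 held ACAAAG and 2 held TGTTTAC, beside 14.9%, 18.7% and 3.65% of all 32851 promoter windows of the same length. These shares are close to those of all promoters, and a match of letters does not show that a factor binds there.

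Among the receptors, *Fgfr2*, whose epithelial splice form receives FGF7 and FGF10, had the highest level of the 42 genes. It had 629.6 FPKM in GFP-high against 616.6 in GFP-low cells, ranks 175 and 167 of 21590 genes. The libraries differed 1.02-fold, and on the TPM scale the direction turned, to −1.05 (higher in GFP-low). *Fgfr3*, a receptor of many stratified epithelia and of cartilage, had 360.8 FPKM in GFP-high against 372.7 in GFP-low cells, ranks 372 and 338. Neither gene separated the populations.

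*Fgfr1*, the receptor most often associated with mesenchyme, had 85.9 FPKM in GFP-high against 152.1 in GFP-low cells and was thus 1.77-fold higher in GFP-low cells (ENSMUSG00000031565, chromosome 8, 25513654–25575718). *Fgfr4* was low in both, at 0.48 and 0.56 FPKM. Of the summed FPKM of these 4 signalling receptors, which was 1077 in GFP-high against 1142 in GFP-low cells, *Fgfr2* made up 58.5% and 54.0%, *Fgfr3* 33.5% and 32.6%, and *Fgfr1* 7.97% and 13.3%. The totals were thus close, and the share that moved most between the libraries was that of *Fgfr1*. The FPKM are sums over splice forms, so the epithelial and mesenchymal forms of *Fgfr1*, *Fgfr2* and *Fgfr3* cannot be told apart here.

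*Fgfrl1* encodes an FGF-binding relative of the receptors that lacks the kinase domain. It had 25.7 FPKM in GFP-high against 13.4 in GFP-low cells, a ratio of 1.92 (ENSMUSG00000008090, chromosome 5, 108692382–108706924). The level of *Fgfr1* was 3.34 times that of *Fgfrl1* in GFP-high but 11.3 times in GFP-low cells. The 2 called genes of the receptor group thus moved in opposite directions.

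Both adaptor genes were expressed in both populations without being called. *Frs2*, which couples FGF receptors to GRB2 and SHP2, had 18.9 FPKM in GFP-high against 21.8 in GFP-low cells. *Frs3*, its close relative, had 9.36 and 12.8 FPKM, a ratio of 1.37 in favour of GFP-low cells, and 12.9% of its 50-nt windows also occur in transcripts of other genes, most of them in the antisense gene *Frs3os*.

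FLRT proteins are transmembrane proteins with leucine-rich repeats that act in cell adhesion, and FLRT3 can bind FGF receptors. *Flrt2* had 17.2 FPKM in GFP-high against 27.9 in GFP-low cells, 1.62-fold higher in GFP-low cells (ENSMUSG00000047414, chromosome 12, 95692226–95785215). *Flrt3* had 8.84 and 10.9 FPKM and was not called, and *Flrt1* was low in both, at 1.46 and 1.29 FPKM.

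The Sprouty and Spred genes, inhibitors of the RAS and ERK relay, differed among themselves. *Spry1* had 122.7 FPKM in GFP-high against 60.9 in GFP-low cells, a ratio of 2.01 and the larger of the 2 calls in GFP-high cells (ENSMUSG00000037211, chromosome 3, 37639947–37644598). *Spry2*, the closest Sprouty in level, had 40.5 and 42.8 FPKM, so that *Spry1* exceeded *Spry2* 3.03-fold in GFP-high but 1.43-fold in GFP-low cells. Of the 50-nt windows of *Spry1*, 21.8% also occur in transcripts of other genes, chiefly *Gm42922* on the opposite strand, with which it shares 710 nt of exons. *Spry4* was low, at 0.98 FPKM in GFP-high against 1.5 in GFP-low cells, and *Spry3* is listed at 0 in both.

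*Spred1* moved the other way from *Spry1*. SPRED1 carries neurofibromin to RAS at the membrane. The gene had 20.5 FPKM in GFP-high against 40.5 in GFP-low cells, 1.97-fold higher in GFP-low cells (ENSMUSG00000027351, chromosome 2, 117121374–117182279). *Spred2* had 41.2 and 55.6 FPKM, 1.35-fold higher in GFP-low cells and under the criterion. *Spred3* had 3.45 and 4.01 FPKM. All 3 Spred genes were higher in GFP-low cells, by ratios from 1.16 to 1.97. The summed FPKM of the 4 Sprouty genes was 164.1 in GFP-high against 105.2 in GFP-low cells, which followed *Spry1*. Only 1 Sprouty gene, *Spry1*, was higher in GFP-high cells, and 2 were higher in GFP-low cells.

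ETV1, ETV4 and ETV5 form the PEA3 group of ETS transcription factors, whose genes are common readouts of FGF receptor activity in embryonic tissue. *Etv4* had the largest ratio of the 7 called members, with 15.9 FPKM in GFP-high against 62.5 in GFP-low cells, 3.92-fold higher in GFP-low cells (ENSMUSG00000017724, chromosome 11, 101769742–101785371). *Etv5* had 11.2 and 17.8 FPKM, 1.60-fold higher in GFP-low cells (ENSMUSG00000013089, chromosome 16, 22381309–22439719). The level of *Etv4* was 1.43 times that of *Etv5* in GFP-high but 3.50 times in GFP-low cells. Of the 50-nt windows of *Etv5*, 24.5% occur in transcripts of other genes, chiefly *Gm4798*, so reads of *Etv5* may have been divided between them. *Etv1* was at 0.42 and 0.65 FPKM.

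**Figure D2:**
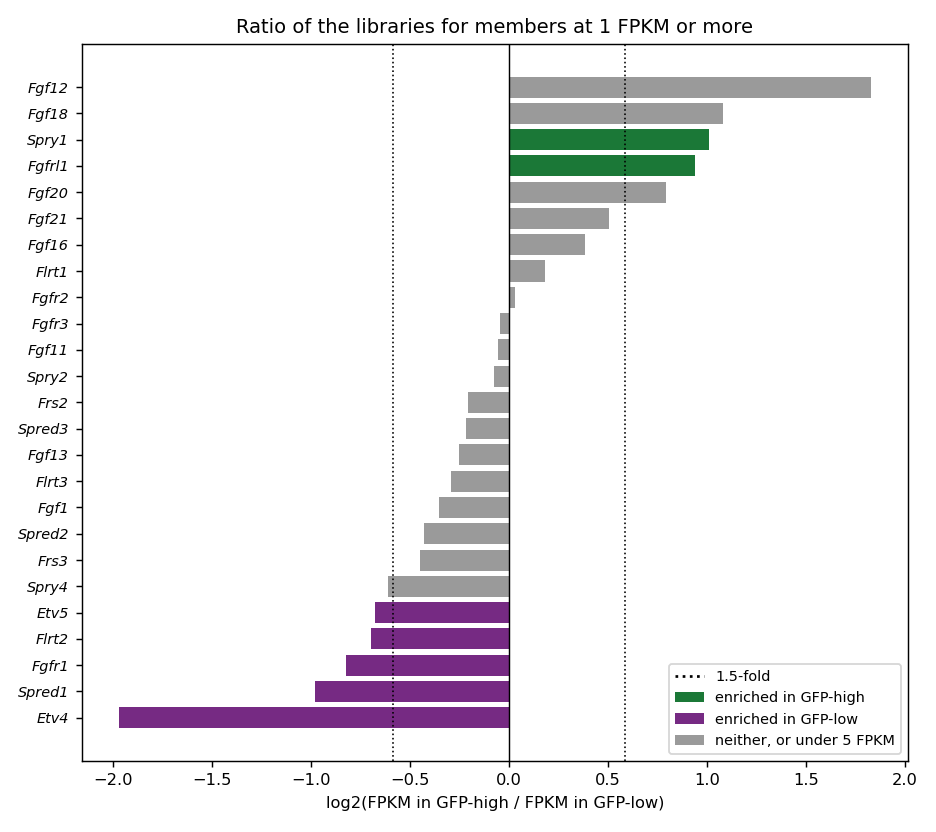
Log2 ratio of FPKM, GFP-high over GFP-low, for the members at 1 FPKM or more in either library, with called genes in color and dotted lines at 1.5-fold. *Etv4* is the longest bar toward GFP-low cells (3.92-fold) and *Spry1* and *Fgfrl1* are the called genes toward GFP-high cells, while *Fgf12*, *Fgf18* and *Fgf20* toward GFP-high and *Spry4* toward GFP-low cells lie beyond the lines at under 5 FPKM. *Fgf3*, listed at 0 in GFP-low cells, and *Fgf14*, at about 1 read there, are left out.

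None of the 22 *Fgf* genes was called in either direction, since only *Fgf1* reached 5 FPKM in any library. *Fgf1*, which activates every FGF receptor, had 4.34 FPKM in GFP-high against 5.55 in GFP-low cells. *Fgf2*, its relative, had 0.20 and 0.93 FPKM, and 10.9% of its windows also occur in other genes, chiefly *Nudt6*, which overlaps it on the opposite strand. The 3 genes of the *Fgf4* subfamily (*Fgf4*, *Fgf5* and *Fgf6*) were at 0.18 FPKM or less, and the value of *Fgf4* in GFP-high cells, 0.01 FPKM, corresponds to about 1 read.

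The ligands that use the epithelial form of FGFR2 were low, and *Fgf3* stood apart from the others. *Fgf3* had 2.38 FPKM in GFP-high cells, but is listed at 0 for GFP-low. At the depths estimated below, the GFP-high value corresponds to at most about 138 reads, and 3 reads in GFP-low would have given about 0.0400 FPKM. *Fgf22* showed the reverse pattern at a lower level, listed at 0 for GFP-high and at 0.44 FPKM in GFP-low cells, at most about 32 reads. *Fgf7* (0.21 and 0.30 FPKM) and *Fgf10* (0.04 and 0.20 FPKM), classic mesenchymal ligands, were under 1 FPKM in either population, with the higher value in GFP-low cells. *Fgf3* lies 2.93 kb from *Fgf4* and *Fgf4* 31.3 kb from *Fgf15* on chromosome 7, all on the same strand. Of these neighbours, *Fgf3* was detected in GFP-high cells alone, while *Fgf4* (0.01 and 0.07 FPKM) and *Fgf15* (0.30 and 0.62 FPKM) were higher in GFP-low cells.

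All 6 genes of the *Fgf8* and *Fgf9* subfamilies, which include ligands made by epithelia, had higher values in GFP-high cells, although at low levels. *Fgf18*, a ligand of skeletal and lung development, had the highest level of them, with 2.83 FPKM in GFP-high against 1.34 in GFP-low cells, a ratio of 2.11. *Fgf20*, an epithelial signal of hair and tooth placodes, had 1.61 and 0.93 FPKM, a ratio of 1.73, and 9.53% of its windows occur in other genes, chiefly *Micu3*. *Fgf16* had 1.33 and 1.02 FPKM. *Fgf9* (0.27 and 0.16), *Fgf17* (0.19 and 0.15) and *Fgf8* (0.04 and 0.03 FPKM) were at traces, the last at about 1 read in each library. The values of *Fgf18*, *Fgf20* and *Fgf16* correspond to at most about 76, 65 and 52 reads in GFP-high cells, so few reads stand behind their ratios. For *Fgf16* and *Fgf17* the estimated reads were equal in both libraries, at most about 52 and 8. Their FPKM thus differ only through the estimated depths.

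Endocrine FGFs act at a distance and need Klotho proteins as co-receptors. *Fgf21* had 1.36 FPKM in GFP-high against 0.96 in GFP-low cells. *Fgf15* and *Fgf23* were at 0.62 FPKM or less, and 21.3% of the windows of *Fgf15* occur in other genes, chiefly the antisense gene *Gm26793*. The co-receptor genes *Kl* and *Klb* were at 0.02 FPKM or less in both libraries.

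*Fgf11* to *Fgf14* encode FGF homologous factors, which stay inside the cell and bind voltage-gated sodium channels rather than acting as ligands. *Fgf14* had 1.67 FPKM in GFP-high cells, at most about 181 reads, and 0.01 FPKM in GFP-low cells, about 1 read, so no ratio is given. *Fgf12* had 1.17 and 0.33 FPKM, a ratio of 3.55 from at most about 191 and 70 reads. *Fgf13* (2.89 and 3.45 FPKM) and *Fgf11* (1.95 and 2.03 FPKM) were nearly level between the populations. *Fgf12* and *Fgf14* thus differed more between the libraries than *Fgf11* and *Fgf13*, all of them under the 5 FPKM of the criterion.

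**Figure D3:**
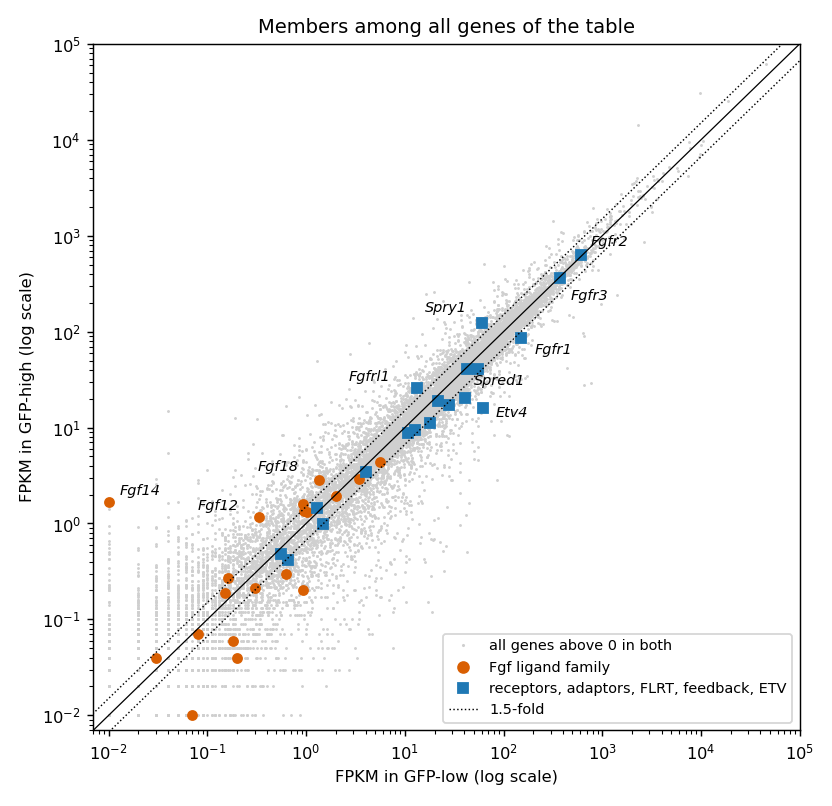
FPKM in GFP-high against GFP-low cells on log axes for all genes above 0 in both (grey), the *Fgf* genes (orange circles) and the other members (blue squares), with the line of equality and dotted lines at 1.5-fold. The *Fgf* genes stay at 5.55 FPKM or less, in the range where grey points scatter widely, and *Fgfr2* and *Fgfr3* lie close to the line of equality near the top.

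The other genes of FGF signalling were taken from 4 lists of 52 genes. The lists were chosen with earlier results of these data known, so the shares below only describe them. Of these, 11 were called in GFP-high cells (21.2%) but 3 in GFP-low cells (5.77%), beside 4.72% and 4.44% of all genes. In these lists 46 of 52 genes reached 5 FPKM in either library, beside 10760 of all 21590. A larger share of the lists could thus be called at all. On the TPM scale 9 of the 52 were called in place of 14. The median difference in log2(FPKM + 1) over the 52 was 0.04. The 18 genes of the relay from GRB2 through RAS to ERK were nearly even, with 1 call, the scaffold gene *Ksr1* at 9.44 FPKM in GFP-high against 5.54 in GFP-low cells.

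Of 11 ERK feedback and response genes, 4 were called in GFP-high against 1 in GFP-low cells. These shares, 36.4% and 9.09%, stand beside 4.72% and 4.44% of all genes. In this list 10 of the 11 genes reached 5 FPKM in either library. Most of its calls ran opposite to those of *Etv4* and *Etv5*. *Dusp5*, a nuclear ERK phosphatase, had 39.9 FPKM in GFP-high against 14.8 in GFP-low cells, a ratio of 2.69. *Fosl1*, which encodes an AP-1 subunit induced by ERK, had 103.1 and 47.2 FPKM, a ratio of 2.19. *Dusp4* (7.40 and 4.71 FPKM) and *Phlda1* (67.2 and 43.1 FPKM) were just past the criterion, with ratios of 1.57 and 1.56. The TPM scale shifts every log2 ratio of GFP-high over GFP-low by −0.1, which takes both genes under 1.5-fold. *Dusp4* also loses its call with 5 FPKM required in both libraries. The direction of most calls in this list thus rests in part on these borderline calls. *Dusp6*, the ERK phosphatase most used as a readout of FGF signalling, had 77.0 and 66.2 FPKM and was not called. *Egr1*, an immediate early gene that dissociation of tissue can also induce, had 1314 and 1972 FPKM, a ratio of 1.5 in favour of GFP-low cells and on the criterion.

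Among 12 co-receptor and carrier genes, *Sdc1*, the main syndecan of epithelia, had 1029.5 FPKM in GFP-high against 564.6 in GFP-low cells, a ratio of 1.82. *Fgfbp1*, which encodes a secreted carrier that frees FGFs from matrix, had 324.1 and 212.9 FPKM, a ratio of 1.52, and *Gpc6* had 8.02 and 5.01. On the TPM scale *Fgfbp1* and *Gpc6* both fall under 1.5-fold. *Sdc3*, a syndecan of neural and glial tissue, was 1.85-fold higher in GFP-low cells, at 176.8 FPKM against 95.4. Of 11 heparan sulfate enzyme genes, *Hs6st1* (209.6 and 109.0 FPKM), *Hs3st1* (7.94 and 4.01) and *Sulf1* (5.16 and 1.23) were called in GFP-high cells. *Sulf2* was called in GFP-low cells, at 18.5 FPKM against 10.1. These calls are 27.3% and 9.09% of the 11 genes, of which 10 reached 5 FPKM in either library. *Hs6st1* encodes a 6-O-sulfotransferase, and *Sulf1* and *Sulf2* encode endosulfatases that remove 6-O-sulfate. The endosulfatase genes were thus called in opposite directions, but *Sulf1* was just past 5 FPKM in GFP-high cells. Its call is lost on the TPM scale. With 5 FPKM required in both libraries, *Sulf1* and *Hs3st1* both lose their calls. *Hs6st2*, the gene of another 6-O-sulfotransferase, had 0.85 and 0.95 FPKM and was not called.

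**Figure D4:**
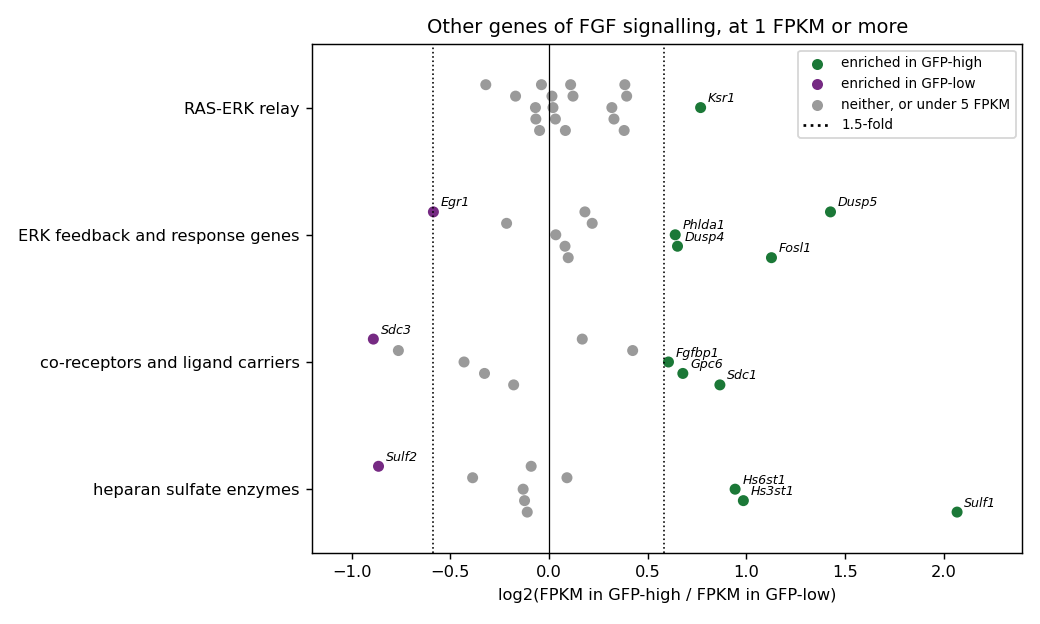
Log2 ratio of FPKM, GFP-high over GFP-low, for the genes of the 4 pathway lists at 1 FPKM or more in either library, with called genes named and in color, dotted lines at 1.5-fold, and vertical offsets that only separate points. The relay genes lie between the lines except *Ksr1*, *Sulf1* lies farthest toward GFP-high cells, and *Egr1* lies on the line toward GFP-low cells.

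Precision was set by the depth and by the lack of replicates. The FPKM of low genes with a single annotated transcript fell near whole reads at about 27 M (megareads) in the GFP-high library and 35 M in the GFP-low library, where 63.5% of 181 and 64.4% of 135 low values lay within 0.15 of a whole read. Of the depths tried, these gave the highest share of values near whole reads, so the percentages are not a test of them. The labels give about 75 M per sample. Read numbers quoted here are therefore approximate. They are upper values only at the depths of 27 M and 35 M, since all annotated exons of a gene were counted. At the 75 M of the labels they would be higher.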

How the data were processed

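RNAseq of 1 GFP-high and 1 GFP-low library from P0 mouse lingual epithelium was analyzed. Per the labels and methods of the study, the authors used Trimmomatic 0.36 to trim stranded 50-nt reads, GSNAP to map them to mm10 and Cufflinks 2.2.1 to quantify them, and deposited FPKM per gene with 2 decimals. The FPKM columns are named means, but each population has 1 library. Whether Cufflinks used strand, and its annotation, are not given in the sources used here, so overlapping genes may share reads. A deposited column of the authors' own folds was not used.

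Gene types, positions and exons came from GENCODE M21 (Python 3.11.15, pandas 2.3.3); *Spry3* is not in it. The 21 entries typed as other than protein-coding and 17 without a number were left out, which leaves 21590. The members and lists were chosen with earlier results of these data known. Members at 1 FPKM or more in either library, called genes of the pathway lists and defining markers were named; *Dusp6*, *Hs6st2*, *Kl*, *Klb* and members under 1 FPKM were named after their values were seen. Windows of 50 nt were compared with GENCODE transcripts of other genes on either strand. Depth was sought at which FPKM up to 0.3 of genes with 400 to 2500 nt of exons, less 200 nt, gave whole reads; counts were not recovered and no count test was run. The rule for calls was tested on simulated data, made from the GFP-low values with known folds and no noise. The alternatives were other FPKM minimums, a 2-fold minimum, added constants, TPM and scaling by the median ratio.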

Additional observations from a re-analysis of the deposited data

How the results depend on the processing

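Calls of the 42 genes changed with the FPKM minimum and the fold minimum. With a minimum of 1 FPKM, 7 members were called in GFP-high cells (*Fgf3*, *Fgf12*, *Fgf14*, *Fgf18* and *Fgf20* in addition) and 6 in GFP-low cells (*Spry4* in addition), and with no minimum 8 in GFP-high against 14 in GFP-low cells. At 2-fold, 1 remained in GFP-high cells (*Spry1*) and 1 in GFP-low cells (*Etv4*). Over all genes, the GFP-high and GFP-low counts, 1020 and 958 with the criterion used here, were 1540 and 1563 with a minimum of 1 FPKM, 3131 and 3248 with none and 448 and 467 at 2-fold, and 633 were called in GFP-low cells with 5 FPKM required in both libraries. The called genes of the pathway lists fell from 14 to 9 with a minimum of 10 FPKM, to 3 at 2-fold and to 9 on the TPM scale. With 5 FPKM required in both libraries, 11 of them were called. The median difference of the members was −0.21 with a pseudocount of 0.1, −0.17 over members averaging 1 FPKM or more and −0.15 on the TPM scale. Medians over all genes are not given for these settings, so these values cannot be read against a background. TPM lowers every log2 ratio of GFP-high over GFP-low by 0.10 (a shift of −0.1), and GFP-high genes then made up 39.8% of all calls instead of 51.6%. Of 104 values for the fold of 26 members under the added constants and scalings, 103 kept their direction and 1, *Fgfr2* on the TPM scale, turned to −1.05. The cause of these changes lies in the construction of each alternative. With 1 library per population, none could be left out. No paired analysis was possible because each population has 1 library and the result comes from no test.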
